A study of Mus musculus with 10 samples.

Results

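The 10 genes described here encode proteins of the acrosome, the secretory cap of the sperm head: Acr, Acrbp, Spam1, Zpbp, Zpbp2, Spaca1, Dkkl1, Crisp2, Spaca3 and Izumo1. They were picked by gene symbol, with earlier results of these data known, and all 10 had a row among the 23420 gene rows of the count tables. PolyA RNA-seq covered mouse spermatogenic cells taken on postnatal day 18, in 5 libraries of the genotype Ino80WT and 5 of the genotype Ino80cKO, all of mixed strain background. Ino80cKO carries a deletion of Ino80, an ATP-dependent chromatin remodeller, made with Stra8-Cre, a recombinase driven in male germ cells and called testis specific by the submitters. Cells came from digested tubules passed through a filter, with no sort for a cell type described, so somatic cells can be present.

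The acrosome is built from Golgi vesicles during spermatid development and holds the enzymes and receptors with which sperm cross the zona pellucida and fuse with the egg. Transcription of many of its genes starts earlier, in pachytene spermatocytes of meiotic prophase, and the messages are kept for later translation. The first wave of germ cells in young mice reaches the pachytene stage before any spermatid has formed.

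Of the 10 genes, 6 fell in Ino80cKO, to about 29.2% to 36.4% of their Ino80WT level: Acr, Acrbp, Zpbp, Zpbp2, Dkkl1 and Crisp2. Spaca1 and Izumo1, both at low levels, did not pass the test. Spam1 and Spaca3 had at most 2 counts in any library and were not tested. None of the 8 tested genes rose (0 with edgeR at an unadjusted p below 0.05 and 0 with DESeq2). Over all 15265 genes tested, 45.9% changed, 27.6% lower and 18.3% higher, so a fall was common in these libraries. In all 6 falling genes every Ino80cKO library was below every Ino80WT library, which held in this direction for 22.0% of all tested genes and in the other for 9.96%. With libraries scaled by their totals, 5484 genes were higher and 2937 lower, in place of 2793 and 4220, and the median log2 fold change of all genes moved from 0.02 to 0.19. The same 6 genes were lower under both scalings. The tissue was measured in bulk, so fewer cells of a type and less RNA per cell cannot be told apart.

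Levels are TMM-scaled CPM, that is, counts scaled to library size with a correction for composition. Fold changes are Ino80cKO over Ino80WT on the log2 scale with their SE. A gene passed at a Benjamini-Hochberg adjusted p below 0.05 over all genes (edgeR's quasi-likelihood test, n = 5 libraries per group). Separate animals are not stated for the 5 libraries of a group, and the p-values then cover only the differences between these libraries, some of which may be technical. Gene counts per library ran from 16750609 to 23700094, and 3 counts correspond to 0.117 to 0.189 CPM, a floor that covers counting error only. The count of Ino80 itself was 95 ± 12.6 CPM (SD) in Ino80WT and 96.1 ± 1.37 CPM in Ino80cKO (adjusted p = 0.889). The deleted exons were not given in the sources used here, so this value does not check the labels, and directions rest on them. Ino80WT 3 held the most pachytene transcripts of its group, and Ino80WT 1 and 2 the most ribosomal precursor Rn45s (7.08% and 4.66% of gene counts).

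Regulatory sequence before the start of transcription is shown for Crisp2 and Zpbp2, which fell, Izumo1, which did not pass, and Spam1, which was not detected. These windows overlap no GENCODE exon. The window of Zpbp, which also fell, overlaps none either, but it is not shown. It holds none of the motifs marked in capitals below. The RefSeq span of Zpbp reaches past this window, to position 11464223, and the gene Spata48 spans the window on the other strand. Each window is the 250 bases before the start in the RefSeq promoter table (GRCm38.p6, the same build as mm10), read 5′ to 3′ on the gene's strand. Starts are those of RefSeq, and the Crisp2 window lies between exons within the longer GENCODE span of that gene given below. Capitals mark a TATA box (TATAAA), a CRE half-site (TGACGT), an RFX half-site (GTTGCC) or an E-box (CACGTG) on either strand.
Crisp2, chr17:40794147-40794396, minus strand: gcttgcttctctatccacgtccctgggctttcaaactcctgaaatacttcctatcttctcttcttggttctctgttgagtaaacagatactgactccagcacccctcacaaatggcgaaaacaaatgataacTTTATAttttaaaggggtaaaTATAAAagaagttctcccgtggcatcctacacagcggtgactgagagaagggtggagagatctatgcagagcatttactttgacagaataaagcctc
Zpbp2, chr11:98550847-98551096, plus strand: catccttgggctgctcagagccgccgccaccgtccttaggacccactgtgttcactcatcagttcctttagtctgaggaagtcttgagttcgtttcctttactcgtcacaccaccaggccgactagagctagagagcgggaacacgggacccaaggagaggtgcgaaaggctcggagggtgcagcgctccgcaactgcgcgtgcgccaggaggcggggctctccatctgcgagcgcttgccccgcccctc
Izumo1, chr7:45621561-45621810, plus strand: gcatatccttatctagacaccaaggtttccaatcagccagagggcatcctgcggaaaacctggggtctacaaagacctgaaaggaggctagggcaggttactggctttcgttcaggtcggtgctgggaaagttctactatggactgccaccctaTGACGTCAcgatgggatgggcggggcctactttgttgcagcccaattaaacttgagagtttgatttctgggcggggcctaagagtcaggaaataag
Spam1, chr6:24790938-24791187, plus strand: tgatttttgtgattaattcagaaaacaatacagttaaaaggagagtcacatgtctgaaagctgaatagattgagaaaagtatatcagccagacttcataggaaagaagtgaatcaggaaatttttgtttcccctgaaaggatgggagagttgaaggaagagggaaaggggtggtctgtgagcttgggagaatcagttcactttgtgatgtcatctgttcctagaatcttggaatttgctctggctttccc
For Acrbp and Dkkl1, which also fell, all 250 bases of the window lie in GENCODE exons, for Acrbp also in those of 2 overlapping genes, since GENCODE has transcripts that start farther upstream. The RefSeq span of Dkkl1 also reaches past its window, to position 45212165. Only the matched letters are shown for Acrbp and Dkkl1, with 10 bases on each side.
Acrbp, RFX half-site, chr6:125049718-125049743, plus strand: ttcacttcccGGCAACacaaaaataa
Acrbp, CRE half-site, chr6:125049899-125049924, plus strand: tcaccttctgTGACGTagcagccgcg
Dkkl1, RFX half-site, chr7:45212106-45212131, minus strand: aaaagacgttGTTGCCgaaaagaagg

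Of the 10 genes 9 had a window in the table, all but Acr. None of the 4 motifs in capitals was in the windows of all falling genes. The RFX half-site, bound by the RFX factors of the ciliary and spermatogenic programme, was in the windows of Acrbp and Dkkl1, against 10.5% of 27018 gene windows of the same length. The CRE half-site, bound by CREB and CREM, was in Acrbp, 18 bases before the RefSeq start and inside a GENCODE exon, and in Izumo1, where the palindrome TGACGTCA holds 2 overlapping matches. It was in 6.53% of all windows. The TATA box letters stood in Crisp2, 118 and 97 bases before the start, and in 13.0% of all windows. None of the 9 held the E-box, which 6.04% of windows hold. The SOX core (ACAAT) was in Dkkl1 and Spam1 (28.2% of windows) and the MYB core (AACNG) in 7 of the 9, all but Spaca3 and Izumo1. The MYB letters were thus in each window of a falling gene, but also in 74.2% of all windows. Base composition also varied among the falling genes, from 42.4% G and C with 4 CpG in Crisp2 to 62.4% with 19 CpG in Zpbp2. Spam1 had 39.6% and 0 CpG, Spaca1 62.8% and 13, and Izumo1 51.6% and 7, against medians of 52% and 6 over all windows. These matches describe letters and do not show binding.

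**Figure D1:**
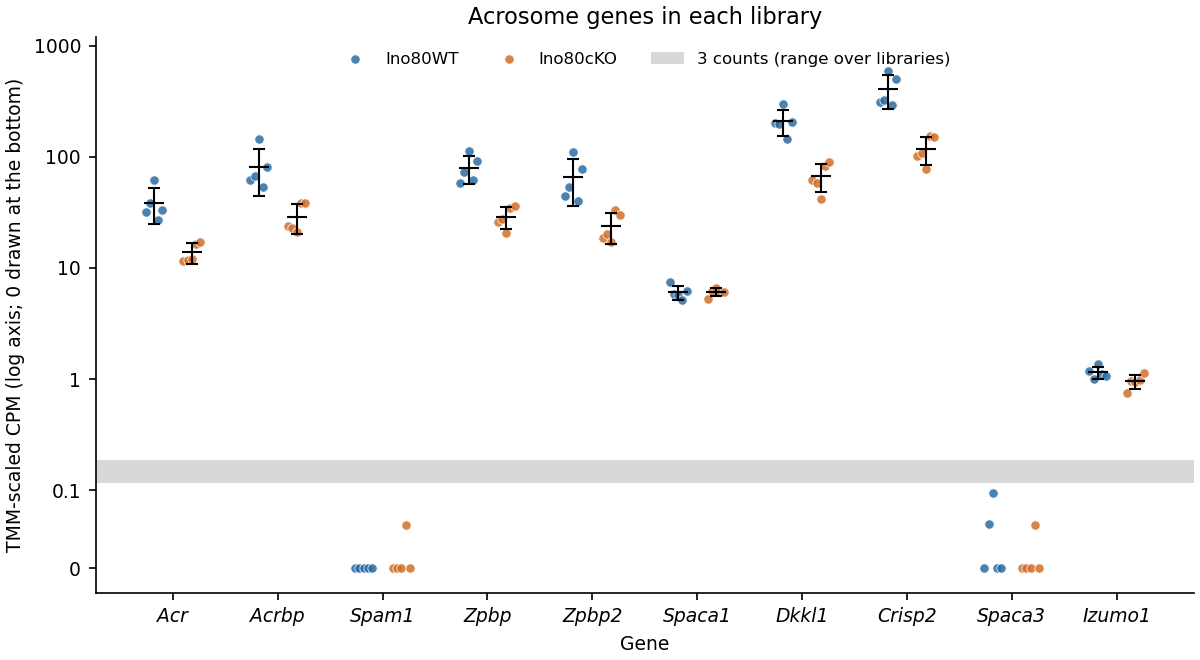
TMM-scaled CPM (log axis) of each of the 10 genes in each of 5 Ino80WT (blue) and 5 Ino80cKO (orange) libraries, with mean and SD as black bars for genes detected in every library and the range of 3 counts as a grey band (values of 0 are drawn at the bottom). For Acr, Acrbp, Zpbp, Zpbp2, Dkkl1 and Crisp2 all orange points lie below all blue points, while Spaca1 and Izumo1 overlap and Spam1 and Spaca3 lie under the band.

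The enzyme system of the acrosomal matrix was represented by Acr, Acrbp and Spam1. Acr (mm10, chromosome 15, positions 89568326 to 89574585) encodes acrosin, the trypsin-like protease of the acrosome. Its levels in Ino80WT 1 to 5 were 32.0, 38.2, 62.0, 27.1 and 33.4 CPM, and in Ino80cKO 1 to 5 they were 11.6, 11.7, 12.0, 16.4 and 17.3 CPM. The groups did not overlap, with Ino80WT 3 well above the rest of its group. Acr fell 2.80-fold (log2 -1.48 ± 0.22, adjusted p = 0.000247). Acrbp (chromosome 6, 125049689 to 125063267) encodes the protein that binds the acrosin precursor and governs its packing and activation. It stood at 61.2, 67.2, 143.8, 53.1 and 80.4 CPM in Ino80WT and at 23.9, 22.9, 21.1, 38.1 and 38.7 CPM in Ino80cKO. Again no Ino80cKO library reached the lowest Ino80WT library. The fall was 2.81-fold (log2 -1.49 ± 0.28, adjusted p = 0.00114). The protease and its binding partner thus had like fold changes, and their SEs overlap. Acrbp shares exonic bases with the antisense gene 4930557K07Rik, and with the noncoding transcript Gm44597 on its own strand, neither of which has a row in the files. The strand setting of the counting was not given in the sources used here, so reads of these genes cannot be told apart. Spam1 (chromosome 6, 24791188 to 24801048), a hyaluronidase of the sperm surface and acrosomal membrane, had 0 counts in all Ino80WT libraries and 1 count in all of Ino80cKO (exact two-sided permutation test of CPM, p = 1). It was not detectable at this depth in either group.

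Among genes that shape the acrosome, Zpbp and Zpbp2 fell and Spaca1 did not pass. Zpbp and Zpbp2 are paralogous proteins of the acrosomal matrix that take part in acrosome compaction and sperm head shape. Zpbp (chromosome 11, 11279626 to 11462408) stood at 58.2, 73.3, 111.6, 62.4 and 92.2 CPM in Ino80WT and at 25.8, 27.6, 20.8, 34.3 and 36.2 CPM in Ino80cKO. The highest Ino80cKO library was below the lowest Ino80WT library, and the fall was 2.75-fold (log2 -1.46 ± 0.20, adjusted p = 0.000158). The first exon of Zpbp is overlapped on the other strand by Spata48, whose row (4930415F15Rik) held 23 counts over all Ino80WT and 39 over all Ino80cKO libraries. Zpbp2 (chromosome 11, 98551097 to 98558665) stood at 44.4, 53.6, 111.0, 39.7 and 78.4 CPM in Ino80WT and at 18.6, 20.1, 17.1, 33.4 and 30.0 CPM in Ino80cKO. The groups were apart, with a wide spread within Ino80WT. The fall was also 2.75-fold (log2 -1.46 ± 0.29, adjusted p = 0.00176). Spaca1 (chromosome 4, 34024874 to 34050191) encodes a protein of the inner acrosomal membrane needed for acrosome shape. Its values were 7.49, 5.79, 5.66, 5.20 and 6.20 CPM in Ino80WT and 5.29, 6.17, 6.67, 6.14 and 6.03 CPM in Ino80cKO. The groups overlapped nearly whole. The log2 fold change was 0.00 ± 0.12 (adjusted p = 0.996). The 95% interval of this fold was 0.83 to 1.21. This interval lies apart from those of the other two in this role, whose folds ran from 0.27 to 0.489 for Zpbp and from 0.235 to 0.563 for Zpbp2.

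Of the genes tied to meeting and fusing with the egg, Dkkl1 and Crisp2 were the most abundant of the 10. Dkkl1 (chromosome 7, 45207519 to 45212147), a Dickkopf-like acrosomal glycoprotein, stood at 200.6, 197.3, 296.7, 145.5 and 206.2 CPM in Ino80WT. In Ino80cKO it stood at 62.4, 58.5, 42.1, 82.7 and 89.0 CPM. All Ino80cKO libraries were below all Ino80WT libraries, and the fall was 3.13-fold (log2 -1.64 ± 0.21, adjusted p = 0.000138). Crisp2 (chromosome 17, 40764020 to 40807003), a cysteine-rich secretory protein of the acrosome and the sperm tail, stood at 310.9, 321.4, 594.2, 294.2 and 502.6 CPM in Ino80WT. Its Ino80cKO values were 100.8, 108.4, 77.1, 153.1 and 152.0 CPM. With no overlap, its fall was the largest of the 8 tested genes in size, 3.42-fold (log2 -1.77 ± 0.24, adjusted p = 0.000166), though its 95% interval of 2.38 to 4.92 holds the point values of the other 5 that fell. Izumo1 (chromosome 7, 45621811 to 45628823), the sperm receptor for the egg protein JUNO and essential for fusion, was near 1 CPM. It stood at 1.20, 1.01, 1.37, 1.12 and 1.07 CPM in Ino80WT and at 0.744, 0.970, 0.939, 0.982 and 1.14 CPM in Ino80cKO, 111 and 103 counts in all. The groups overlapped, with a log2 fold change of -0.28 ± 0.18 (adjusted p = 0.23). The fold lay between 0.624 and 1.09 at 95%. Spaca3 (chromosome 11, 80858365 to 80867814), a lysozyme-like acrosomal protein, had 3 counts over all Ino80WT libraries and 1 over all Ino80cKO libraries (exact two-sided permutation test of CPM, p = 0.444). No library exceeded 2 counts, so it was not detectable at this depth.

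**Figure D2:**
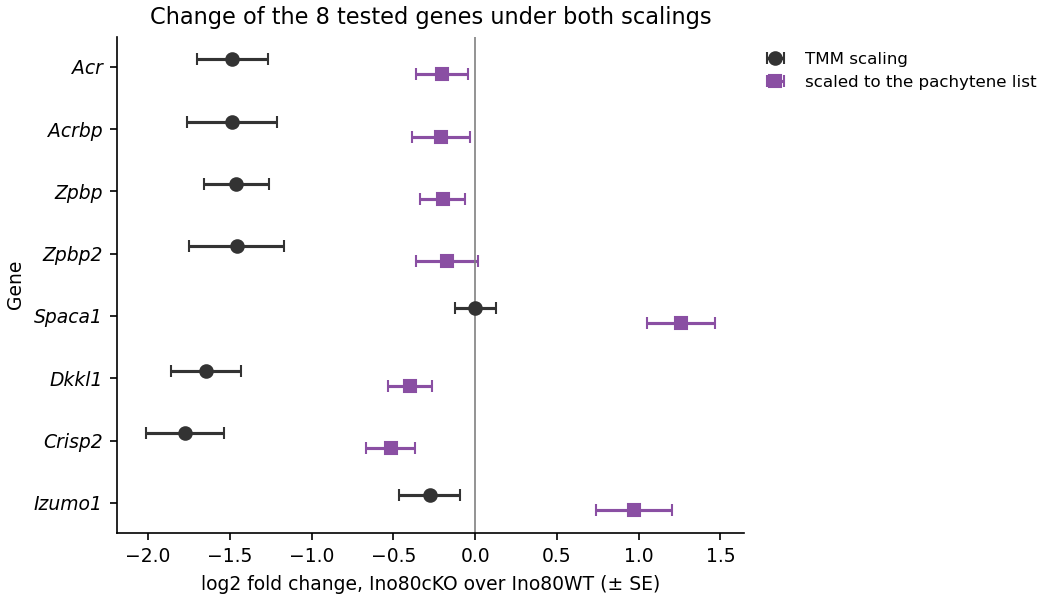
Log2 fold change of Ino80cKO over Ino80WT with SE (n = 5 libraries per group) for the 8 tested genes, under TMM scaling (black circles) and with libraries scaled to the summed pachytene list (purple squares). Under TMM scaling 6 genes lie between -1.77 and -1.46 with Spaca1 and Izumo1 near 0, and under the other scaling Spaca1 and Izumo1 lie at 1.26 and 0.97.

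The order of abundance of the genes was the same in both groups when levels were set per kilobase of exon. Dkkl1 had 181 CPM per kilobase in Ino80WT, and Crisp2 had 165, with overlapping ranges over libraries. A clear step separated these from Zpbp2, Acrbp, Acr and Zpbp at 39.9, 31.4, 25.6 and 18.7 CPM per kilobase, whose ranges overlapped from each to the next. Spaca1 at 3.80 and Izumo1 at 0.772 CPM per kilobase lay below, each apart from its neighbours in every library. In Ino80cKO the corresponding levels were 58.0 for Dkkl1, 48.2 for Crisp2, 14.5 for Zpbp2, 11.2 for Acrbp, 9.17 for Acr and 6.81 for Zpbp. Spaca1 remained at 3.80 and Izumo1 stood at 0.639. The 6 genes that fell were thus the 6 most abundant, and the 4 others were the least abundant. Lengths are those of all exons of protein-coding transcripts in GENCODE, and the isoforms used in these cells were not measured.

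Part of the 10 genes were well detected in libraries that held few late spermatid transcripts. Late markers do not cover earlier spermatids, and no sort of cells was described. The stage at which these genes were transcribed was thus not tested. Of 12 late spermatid markers, none passed the count filter. The protamines Prm1, Prm2 and Prm3 and the transition protein Tnp2 had 0 counts in all 10 libraries. The 12 together reached 1.11 to 2.12 CPM in Ino80WT and 0.749 to 1.37 CPM in Ino80cKO. Acr, Acrbp, Zpbp, Zpbp2, Dkkl1 and Crisp2 were each above 27 CPM in every Ino80WT library. Spaca1 and Izumo1 were above the floor in every library but low. Spam1 and Spaca3 had at most 2 counts in any library, where the highest count of a late spermatid marker ran from 0 to 14. When Spam1 and Spaca3 are first transcribed was not tested.

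The acrosome genes were next set against pachytene transcripts at large. Of a list of 25 pachytene genes with none of the 10 among them, all 25 were lower (0 higher at an unadjusted p below 0.05 and 0 with DESeq2). Their median log2 fold change was -1.28, against 0.02 over all tested genes. Its summed level was 7868 to 12214 CPM in Ino80WT and 3130 to 4780 CPM in Ino80cKO. Of 12 genes of early meiotic prophase, 7 were lower, Sycp3 of the synaptonemal complex among them (log2 -0.43), and 1 was higher (median -0.44). Sertoli cell markers moved the other way, with 6 of 10 higher and a sum of 2884 to 4330 CPM in Ino80WT and 4229 to 5426 CPM in Ino80cKO. Of the other markers, 6 of 8 immune (18.7 to 35.0 and 51.9 to 90.8 CPM), 4 of 6 tested Leydig cell (28.2 to 75.3 and 52.8 to 115.8 CPM) and 1 of 5 peritubular (593.8 to 756.3 and 668.8 to 989.7 CPM) were higher. Of 11 spermatogonial markers 3 were higher (542.9 to 740.6 and 728.0 to 835.9 CPM), and none of 4 endothelial markers passed (34.9 to 58.4 and 39.2 to 71.2 CPM; 0 at an unadjusted p below 0.05, 1 higher with DESeq2). Over all tested genes 27.6% were lower and 18.3% higher. The peritubular and spermatogonial counts were near the share of higher genes at large. The part of these shifts in the fall of the acrosome genes was not tested.

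When every library was scaled so that the summed counts of the 25 pachytene genes were equal, 2 of the 6 genes still passed as lower. Of the 25 pachytene genes themselves, 6 also passed as lower and 4 as higher, with Spag16 at log2 -0.52. The 2 acrosome genes that passed as lower lay within this spread of the list. In this scaling 91.1% of all tested genes changed, 0.976% lower and 90.1% higher, and the median log2 fold change was 1.27. The groups did not overlap for 0.537% of genes in the lower and 84.0% in the higher direction. Crisp2 was lower still, at 254 ± 46.4 scaled CPM in Ino80WT and 178 ± 23.3 in Ino80cKO (SD), with no overlap (log2 -0.52 ± 0.15, adjusted p = 0.00408). Dkkl1 was lower too, 133 ± 13.5 against 101 ± 13.5 scaled CPM (log2 -0.40 ± 0.14, adjusted p = 0.0111), with 1 Ino80cKO library above the lowest Ino80WT library. Dkkl1 no longer passed without Ino80WT 1 and 2 (adjusted p = 0.0555) or with the replicate number as a block (adjusted p = 0.0625). Acr, Acrbp, Zpbp and Zpbp2 did not pass, with log2 fold changes of -0.20 ± 0.16, -0.21 ± 0.18, -0.20 ± 0.14 and -0.17 ± 0.19. For these 4 a difference from the pachytene list was not detected, and whether they differ from Crisp2 and Dkkl1 was not tested. Spaca1 and Izumo1 were higher relative to the list, as were most genes, by 1.26 ± 0.21 (adjusted p = 3.03e-05) and 0.97 ± 0.23 (adjusted p = 0.000899), both with no overlap. With the early prophase list as the reference in place of the pachytene list, 6 of the genes were lower, and Spaca1 and Izumo1 no longer passed.

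**Figure D3:**
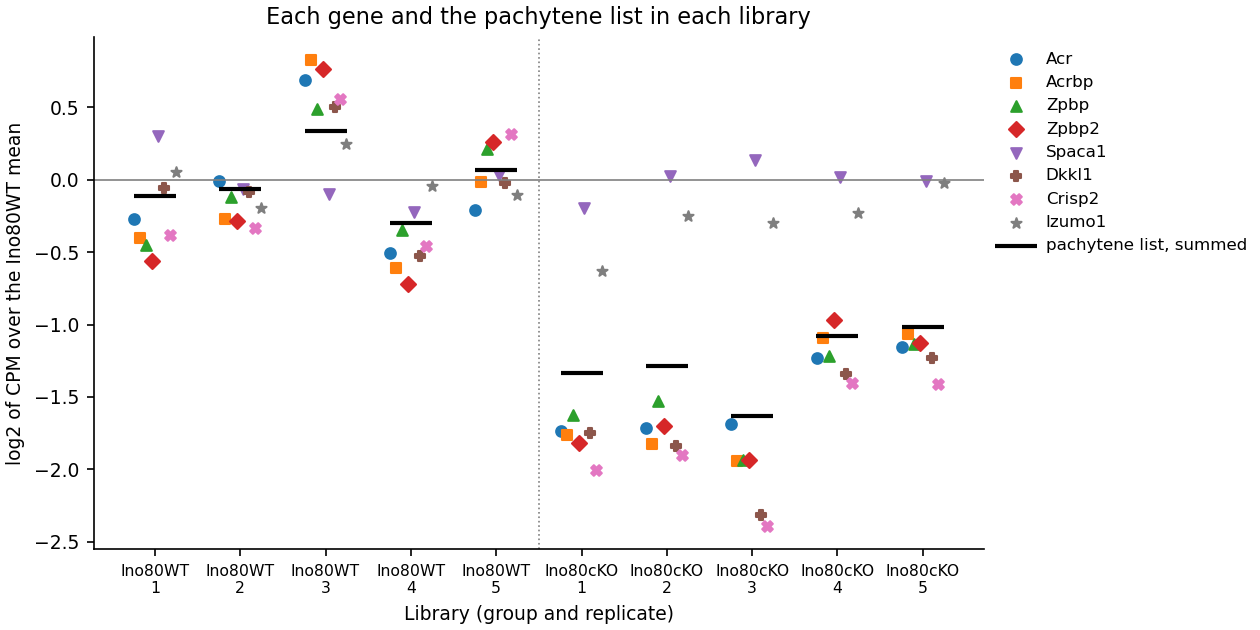
Log2 of TMM-scaled CPM over the Ino80WT mean for the 8 tested genes (symbols) and for the summed pachytene list (black bars) in each of the 10 libraries. Ino80WT 3 is the highest library of its group for 7 of the 8 genes and for the list, and Ino80cKO 3 is the lowest of its group for 5 genes and for the list.

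Libraries of 1 genotype differed in the same direction for most of these genes. Ino80WT 3 was the highest Ino80WT library for 7 of the 8 tested genes, all but Spaca1, and Ino80cKO 3 the lowest Ino80cKO library for Acrbp, Zpbp, Zpbp2, Crisp2 and Dkkl1. Relative to the mean of the other Ino80WT libraries, Ino80WT 3 held 2.20 times as much Acrbp, 2.05 times Zpbp2, 1.90 times Acr, 1.66 times Crisp2, 1.58 times Dkkl1 and 1.56 times Zpbp. The summed pachytene list in this library was 1.35 times that mean. The same library had the lowest Sertoli sum of the 10, and Ino80cKO 3 the highest. Without both libraries all 6 falls still passed, at log2 fold changes of -1.06 for Acrbp and Zpbp2, -1.18 for Acr, -1.19 for Zpbp, -1.34 for Dkkl1 and -1.45 for Crisp2. The calls of the 8 genes were the same in all 18 alternative settings.

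Other acrosome genes were in part lower as well. Of 58 listed genes outside the 10, 57 had a row and 33 passed the count filter. Among the 33, 22 were lower and 2 higher. Their median log2 fold change was -0.56, against 0.02 for all tested genes, of which 27.6% were lower and 18.3% higher. Under library totals the median was -0.38. Relative to the pachytene list 2 of the 33 were lower and 20 higher (median 0.71), where 0.976% of all tested genes were lower and 90.1% higher. A further 14 genes had at most 3 counts in every library, among them Spaca4, Hyal5, Lyzl4, Lyzl6 and Izumo2 with none at all. These include relatives of the undetected pair: Hyal5 is a hyaluronidase like Spam1, and Lyzl4 and Lyzl6 are lysozyme-like as Spaca3 is.

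In the group of other contents and surface proteins, 6 of 11 tested genes were lower and 2 higher. Over all tested genes 27.6% were lower and 18.3% higher, so the count of higher genes was near the share at large. Spink2, a protease inhibitor of the acrosome, fell from 109.4 ± 27.5 to 32.9 ± 8.45 CPM (SD; 3.33-fold, log2 -1.73 ± 0.20, adjusted p = 7.85e-05). Lypd4 fell 3.21-fold from 99.3 ± 27.9 CPM. Pcsk4, a proprotein convertase of germ cells, fell 2.19-fold from 45.8 ± 10.1 CPM. Tex101, a germ cell surface protein that acts in the processing of sperm membrane proteins, fell 1.72-fold from 736.9 ± 99.1 CPM. The 2 higher genes, named here after their values were seen, were Vwa5a (1.47-fold) and Cd46 (1.54-fold). Cd46 was below 1.2 CPM in every library, and its call was lost in 13 of the 17 alternative settings that tested it. Relative to the pachytene list 2 of the 11 were lower, Spink2 by 0.48 and Lypd4 by 0.42 on the log2 scale, and 6 were higher, Tex101 among them (log2 0.46), as were 90.1% of all genes.

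Of 18 tested genes of acrosome biogenesis, 14 were lower and none higher (0 at an unadjusted p below 0.05 and 0 with DESeq2), with a median of -0.52. Over all tested genes 27.6% were lower and 18.3% higher. The biogenesis genes with the smallest adjusted p were Gba2, Gopc, Ccdc136 and Pick1. Ccdc136, needed for acrosome formation, fell 2.57-fold from 423.9 ± 122 to 165.2 ± 37.9 CPM (log2 -1.36 ± 0.20, adjusted p = 0.000269). Gopc and Pick1, partners in vesicle traffic from the Golgi to the acrosome, fell 1.47-fold and 1.40-fold, and the glucosylceramidase Gba2 fell 1.58-fold. Relative to the pachytene list 12 of the 18 were higher, Gba2, Gopc and Pick1 among them, and none lower (0 at an unadjusted p below 0.05 and 0 with DESeq2), against 90.1% higher over all genes. Dpy19l2 and Spata16, both germ cell genes whose loss in humans leads to round-headed sperm and both named after their values were seen, fell 3.06-fold and 3.02-fold. The call of Vps54 (log2 -0.15, adjusted p = 0.0486) was lost in 17 of the 18 alternative settings, and its sign turned under library totals (0.03).

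For gamete binding and fusion, 4 of 14 genes with a row passed the count filter, 2 were lower and none higher (0 at an unadjusted p below 0.05 and 0 with DESeq2). Over all tested genes 27.6% were lower and 18.3% higher. Clgn, calmegin, a chaperone of sperm surface proteins in the endoplasmic reticulum of germ cells, fell 2.41-fold from 588.6 ± 126.7 to 243.8 ± 48.0 CPM (log2 -1.27 ± 0.16, adjusted p = 0.000123). Izumo4, a relative of Izumo1, fell 1.99-fold from 24.3 ± 5.21 CPM, with overlap between the groups. Izumo2 and Izumo3 had 0 and 1 counts over all libraries.

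**Figure D4:**
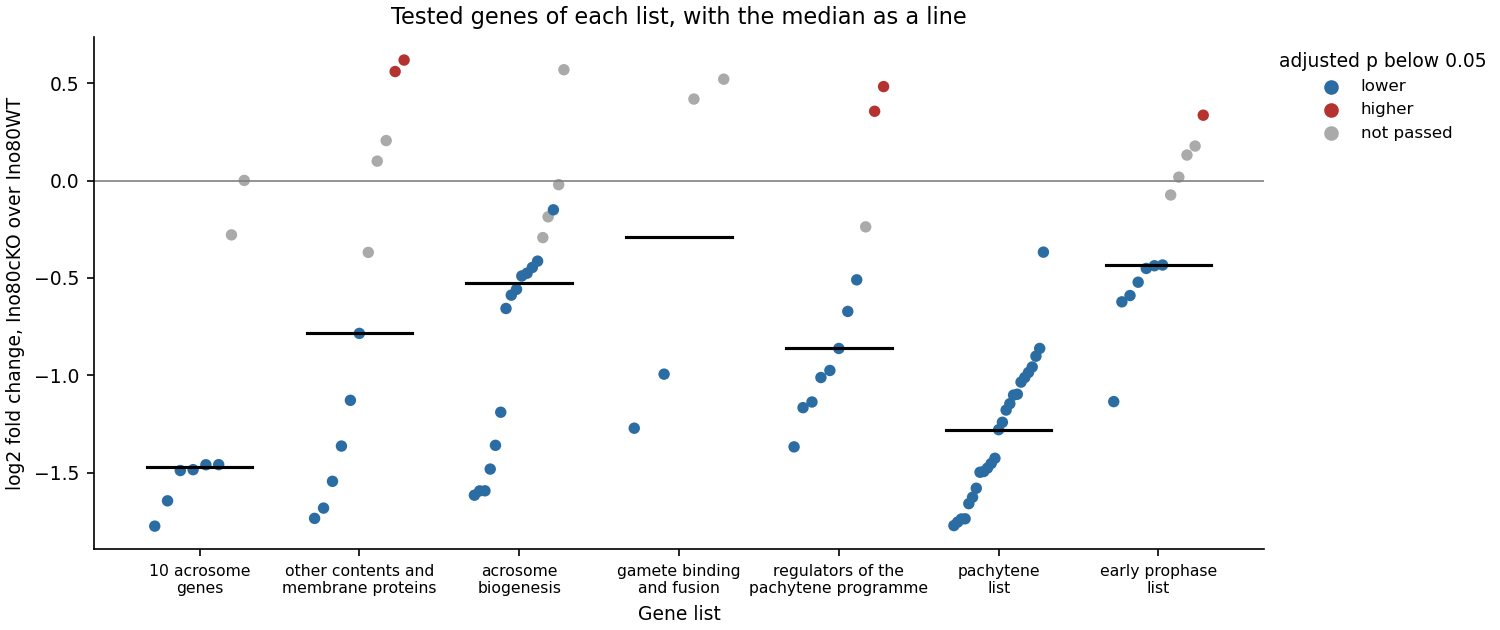
Log2 fold change of Ino80cKO over Ino80WT (TMM scaling) for each tested gene of 7 lists, coloured by whether it passed at an adjusted p below 0.05, with the median of tested genes as a line. The 10 acrosome genes show 6 of 8 between -1.77 and -1.46, the biogenesis list has a median of -0.52, and the pachytene list a median of -1.28.

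Of 11 tested transcription factors and chromatin proteins of the pachytene programme, 8 were lower and 2 higher (median log2 fold change -0.86), where 27.6% of all tested genes were lower and 18.3% higher. Relative to the pachytene list none of the 11 was lower (0 at an unadjusted p below 0.05 and 0 with DESeq2) and 6 were higher. In that scaling 0.976% of all tested genes were lower and 90.1% higher. Brdt and Tbpl1 are in the pachytene list too. Rfx2, an RFX factor of spermatogenesis, fell from 160.8 ± 49.6 to 62.3 ± 13.7 CPM (2.58-fold, log2 -1.37 ± 0.20, adjusted p = 0.000288). Crem, the cAMP-responsive factor of postmeiotic genes, fell from 75.5 ± 14.0 to 33.6 ± 4.63 CPM (2.24-fold), and Tcfl5 fell 2.20-fold. Mybl1, which encodes A-MYB, the driver of pachytene transcription, fell less, from 129.8 ± 29.9 to 91.2 ± 9.81 CPM (1.42-fold, adjusted p = 0.0144), with overlap between the groups. Its call was lost in 2 of the 18 alternative settings. Brdt, a bromodomain protein, fell 2.02-fold, Ovol1 1.97-fold with overlap between the groups, Tbpl1, a relative of the TATA-binding protein, 1.82-fold, and Sox30 1.59-fold. Taf7l, an X-linked subunit of the TFIID type, rose from 247.6 ± 26.7 to 346 ± 26.1 CPM (1.40-fold), and Rfx3 rose 1.28-fold, a call lost in 1 of the 18 alternative settings (adjusted p = 0.0561). Creb3l4 did not pass (log2 -0.24 ± 0.18).

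Neighbouring genes were called about as often as genes at large. The nearest gene with a row on each side of each of the 10, not overlapping it by RefSeq positions, gave 20 neighbours. Of these 12 were tested, 3 were lower and 2 higher. Spata48, which overlaps Zpbp, was not among them, and Rasip1 overlaps the GENCODE span of Izumo1. The background was 27.6% lower and 18.3% higher. Ccdc155, which encodes a protein linking meiotic telomeres to the cytoskeleton and lies 2606 bases from Dkkl1, fell from 120.5 to 60.4 CPM (1.99-fold, adjusted p = 4.82e-05). Rabl2, 3674 bases from Acr, was lower by 0.37 on the log2 scale, and Akirin2, 500548 bases from Spaca1, by 0.31. All distances here are between RefSeq spans, and that of Acr reaches position 89578853, past the GENCODE end given above. Shank3, on the other side of Acr, was higher by 0.60, and Ormdl3, beside Zpbp2, by 0.31. Ing4, 662 bases from Acrbp, did not pass (log2 0.05), nor did Ikzf3 beside Zpbp2 (0.09), Ikzf1 beside Zpbp (0.10), Tead2 beside Dkkl1 (0.31), Rasip1 beside Izumo1 (0.18), Cnr1 beside Spaca1 (0.10) or Tmem98 beside Spaca3 (0.02). Tead2 was called higher in 7 of the 18 alternative settings. Lpar5, Asic2, Vwc2, Gm6084, Rhag, Hyal4, Hyal5 and Fut1 did not pass the count filter. Under library totals, and without Ino80WT 1 and 2, 1 neighbour was lower in place of 3.

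The genes whose levels over the 10 libraries were nearest to the mean profile of the 8 tested acrosome genes were Lyar, Tmem97, Zfp956, Acot7 and Rwdd2a. The measure was the root mean square distance of log2 CPM, each gene centred on its own mean, and it was 0.05 to 0.09 for these 5. The acrosome genes themselves were farther from their own mean profile, from 0.17 for Zpbp and 0.19 for Acr to 0.51 for Izumo1 and 0.67 for Spaca1. That mean mixes the 6 falling genes with Spaca1 and Izumo1, which did not pass, and so matches no acrosome gene closely. The 5 nearest genes had log2 fold changes of -1.20 to -1.09, a smaller fall than in any of the 6. Lyar, which encodes a nucleolar protein, fell from 642.6 ± 172.1 to 283.8 ± 51.8 CPM (2.26-fold), and Tmem97, a membrane protein of sterol handling, from 254.9 ± 69.2 to 119.5 ± 22.9 CPM (2.13-fold).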

How the data were processed

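PolyA RNA-seq of 5 Ino80WT and 5 Ino80cKO libraries was used. The deposited values are raw counts per gene, 1 file per library. TopHat2, HTSeq, DESeq2 and the build mm10 are listed, without versions or roles, per the submitters' processing notes. Annotation and strand setting were not given in the sources used here. The 5 rows that name no gene held 35.5% to 44.0% of reads and were left out. Genes were kept by filterByExpr (minimum count 10, minimum total 15), scaled by TMM and tested with edgeR 4.0.16 in R 4.3.3 (glmQLFit robust, genotype only), with Benjamini-Hochberg adjustment over 15265 genes at 0.05. The SE is the log2 fold change over the square root of F. A second fit scaled libraries to the summed counts of 25 pachytene genes. The model was tested on simulated data.

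No libraries were duplicates (lowest chi-square per degree of freedom within a group 9.40). Alternatives were other scalings and filters, DESeq2 1.42.0, a replicate block and left-out libraries. Positions come from GENCODE vM21 and RefSeq (GRCm38), promoters from RefSeq. The genes and lists were chosen with earlier results of these data known. Named from each other acrosome list were up to 4 genes with the smallest adjusted p, all 11 regulators, all neighbours and the 5 nearest profiles. Per-sample precision is limited by depth, 16750609 to 23700094 gene counts.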

Additional observations from a re-analysis of the deposited data

How the results depend on the processing

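The 6 lower acrosome genes and the absence of higher ones were the same in all 18 alternative settings, with log2 fold changes from -1.92 to -1.06. Scaling by library totals gave 5484 higher genes over all tested, 4 higher among the other acrosome genes and 1 lower among the neighbours. Only 1 other acrosome gene was higher with no filter, with the filter of 1 CPM in 5 libraries, and without Ino80WT 3 and Ino80cKO 3, and leaving out 1 library gave 1 to 2. Without Ino80WT 1 and 2, 1 neighbour was lower, and 1 of the 10 genes was lower relative to the pachytene list. With the early prophase list as the reference, 6 of the 10 genes were lower and 0 higher, against 1598 lower and 6792 higher of all 15265 tested. Same-numbered libraries share only a number (correlations of their deviations -0.47 to 0.196, and 1 of 5 Ino80WT libraries matched its own number best). With replicate as a block, 3572 genes were lower and 1921 higher, 6 of the 10 genes were lower, 1 other acrosome gene was higher, and 1 of the 10 was lower relative to the pachytene list, Dkkl1 being lost (adjusted p = 0.0625). The causes of these shifts were not tested. Spam1 and Spaca3 were not detectable at this depth, and Izumo1 rests on about 20 counts per library.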
